A study of Rattus norvegicus with 10 samples.

Results

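Ccl2, Ccl3, Ccl4 and Ccl5, genes of 4 secreted CC chemokines, were followed in rat gastric mucosa after oral non-steroidal anti-inflammatory drugs (NSAIDs). They are 4 of the 32623 gene rows in the count files. The rows were taken by Ensembl identifier and kept if they lay on chromosome 10, which all 4 did. The files give no gene names, so the names are those assigned to the identifiers when the 4 were chosen. The RefSeq gene table of the rat assembly GRCr8 places Ccl2, Ccl5, Ccl3 and Ccl4 in the same order on chromosome 10 as the files place the 4 identifiers.

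The libraries came from gastric mucosa of Sprague Dawley rats, with epithelial cells given as the cell type, 2 libraries in each of 5 groups. Controls carried no treatment label. NSAIDs block cyclooxygenases, the enzymes that begin prostaglandin synthesis. One group received indomethacin at 48 mg/kg, another diclofenac at 75 mg/kg and another aspirin at 400 mg/kg, all by mouth with sampling after 4 h. The fifth group received honokiol, a lignan from magnolia bark, at 40 mg/kg into the peritoneal cavity 30 min ahead of indomethacin at 48 mg/kg. Its time label reads 0.5 h, which equals that lead, so its sampling at 4 h is taken from the general protocol. Age and sex of the rats and the vehicle were not stated. The labels do not tie the replicates to different animals, so the p-values reflect only how far these libraries vary. Because no identifier could be paired with a symbol (0 of 32623), the mucosa and its epithelial label could not be checked against marker genes.

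CC chemokines are small secreted proteins named for a pair of neighbouring cysteines. They bind G protein-coupled receptors on leukocytes and draw these cells out of the blood into injured or infected tissue. Ccl2 acts through Ccr2 and is the classical attractant of monocytes. Ccl3, Ccl4 and Ccl5 attract macrophages, T cells and NK cells. Transcription of Ccl2, Ccl3 and Ccl4 can be switched on within hours by NF-kB, while Ccl5 is also made late by activated T cells.

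The 4 genes are alike in structure, each with 3 exons. Ccl2 (ENSRNOG00000007159) lies on the plus strand of chromosome 10 from 69412017 to 69413870. Ccl5 (ENSRNOG00000010906) lies on the minus strand from 70739800 to 70744315. Ccl3 (ENSRNOG00000011205) lies on the minus strand from 70869513 to 70871066, and Ccl4 (ENSRNOG00000011406) follows on the plus strand from 70884531 to 70886355, with 13465 bases between them. Coordinates are those of the files, of a build not given in the sources used here. A single feature overlaps a member: it has 2 exons on the plus strand from 70870239 to 70871017, inside Ccl3, and held 36 counts in all 10 libraries against 88 for Ccl3. The strand setting of the counter is not given, so reads of this pair cannot be told apart with certainty.

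Library totals ran from 23892226 to 44977459 counts. Values below are CPM, counts scaled to library size, with TMM factors that adjust for the composition of each library. At this depth a count of 0 in a control library allows up to 0.0947 CPM in replicate 1 and 0.1 CPM in replicate 2, where 3 counts are taken as the floor. Counting intervals and floors cover counting error only. The libraries also differed in reads on the Y chromosome. Of the 10, 4 held such reads: control replicate 1, indomethacin replicate 1 and both honokiol libraries. All aspirin and diclofenac libraries lacked them, so this difference is entangled with the comparisons. The replicates of control and of indomethacin differ in it and so are not the same animal.

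Ccl2 was the chemokine that moved most in counts. It rose after diclofenac and after aspirin, and its indomethacin libraries also stood far above the controls without passing the test. In the controls Ccl2 had 0.758 CPM in replicate 1 (24 counts) and 0.434 CPM in replicate 2 (13 counts). With indomethacin it had 13.2 CPM (472 counts) and 24.9 CPM (969 counts). With aspirin it had 6.48 CPM (176 counts) and 22.3 CPM (942 counts). With diclofenac it had 18.1 CPM (798 counts) and 33.5 CPM (1406 counts). Every library of the 3 drugs given alone lay far above both controls, and the lowest of them, aspirin replicate 1, was still over the higher control. With honokiol before indomethacin Ccl2 had 2.17 CPM (67 counts) and 0.636 CPM (17 counts), so its lower library fell between the controls.

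**Figure D1:**
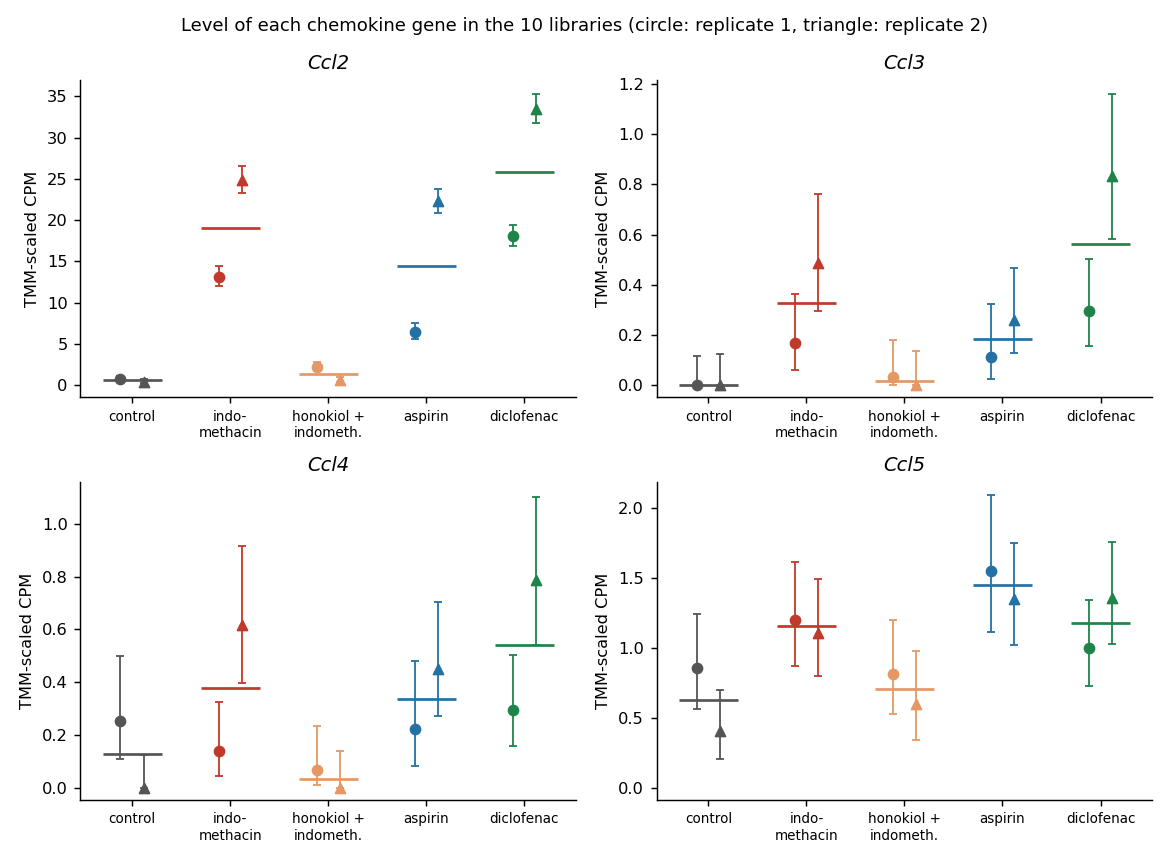
TMM-scaled CPM of each gene (vertical axes, which differ between panels) in the 10 libraries by group. Circles are replicate 1, triangles replicate 2, horizontal lines the mean of both and bars the exact 95% Poisson interval of each library's counts. Ccl2 runs from 0.434 CPM in a control to 33.5 CPM with diclofenac, while Ccl5 stays between 0.401 and 1.55 CPM.

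Ordered by group mean, Ccl2 was at 0.596 CPM ± 0.229 in control, 1.4 ± 1.08 with honokiol plus indomethacin, 14.4 ± 11.2 with aspirin, 19.0 ± 8.29 with indomethacin and 25.8 ± 10.9 with diclofenac (SD, n = 2 each). The 3 drugs given alone were neighbours in this order whose libraries overlapped, and the control and honokiol groups overlapped as well. Between these sets there was a gap from 2.17 to 6.48 CPM. The fitted log2 fold change over control was 5.42 ± 0.93 with diclofenac and 4.59 ± 0.91 with aspirin (SE, edgeR adjusted p = 0.022 and 0.023). That is 42.8-fold and 24.0-fold. With indomethacin it was 4.98 ± 0.92, a 31.6-fold difference that missed the threshold (SE, edgeR adjusted p = 0.088, unadjusted p = 0.0011). DESeq2 (Wald test) gave an adjusted p of 3.61e-06 for the same contrast, and edgeR fitted on those 2 groups alone gave 0.00027.

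Both calls for Ccl2 ended when reads on the Y chromosome entered the model, at log2 fold changes of 5.19 for diclofenac and 4.36 for aspirin (edgeR adjusted p = 0.096 and 0.091). Within the libraries free of Y reads, which leave a lone control, they were 5.91 and 5.08 (edgeR adjusted p = 0.22 and 0.18). Without control replicate 1 the adjusted p was 0.14 for diclofenac and 0.12 for aspirin, without control replicate 2 it was 0.084 and 0.088, and without diclofenac replicate 2 it was 0.0695 for diclofenac. The fold of indomethacin over control could be read within both Y-read states, 1 library against 1. For Ccl2 it was 17.4 in the pair with Y reads and 57.3 in the pair without. For Ccl5 it was 1.41 with Y reads and 2.76 without. Ccl4 went the other way in the pair with Y reads, at 0.552 (5 against 8 counts). No fold is given for Ccl4 without Y reads or for Ccl3, where the control held 0 counts.

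Ccl3, an attractant of macrophages and T cells, had no counts in either control and some in every library of the 3 drugs given alone. Controls held 0 and 0 counts. Indomethacin libraries held 6 and 19 counts (0.167 and 0.488 CPM), aspirin libraries 3 and 11 (0.11 and 0.26 CPM) and diclofenac libraries 13 and 35 (0.295 and 0.833 CPM). Honokiol plus indomethacin left 1 count in replicate 1 and 0 in replicate 2. These are low counts, so the controls can only be said to lie under the detection floor.

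Ccl3 passed the low-count filter of the test only through libraries of the drugs given alone, where it was highest. It rose after diclofenac, with a mean at least 5.79-fold higher than a floor of 3 counts in each control library (edgeR adjusted p = 0.024). Against that floor its mean was at least 3.36-fold higher with indomethacin and at least 1.9-fold higher with aspirin, where the edgeR adjusted p was 0.14 and 0.054. The diclofenac call was lost with the Y-read term (log2 fold change 6.72, edgeR adjusted p = 0.072). It was lost too within the libraries free of Y reads (7.41). With both controls at 0 counts, these values and the 7.31 of all libraries depend on the prior count, so their closeness does not show a stable fold. The diclofenac call was also lost on leaving out control replicate 1, control replicate 2 or diclofenac replicate 2.

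Ccl4, a chemokine closely related to Ccl3, was also at low counts and overlapped more with the controls. Controls had 0.253 CPM (8 counts) and 0 CPM (0 counts). Indomethacin gave 0.139 CPM (5 counts) and 0.617 CPM (24 counts), aspirin 0.221 CPM (6 counts) and 0.45 CPM (19 counts), and diclofenac 0.295 CPM (13 counts) and 0.786 CPM (33 counts). Honokiol plus indomethacin gave 0.0648 CPM (2 counts) and 0 CPM (0 counts). The first indomethacin and first aspirin library lay between the controls, and only the diclofenac libraries cleared both. Ccl4 did not pass the test with any drug. Its log2 fold changes over control were 1.54 ± 1.12 for indomethacin, 2.04 ± 1.09 for diclofenac and 1.40 ± 1.13 for aspirin (SE, edgeR adjusted p = 0.72, 0.25 and 0.39). Control replicate 1 carried all the control counts, and without it the same log2 fold changes, set against a control at 0, were 6.76, 7.27 and 6.63, values that depend on the prior count and passed no test (edgeR adjusted p = 0.33, 0.16 and 0.14).

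Ccl5, which attracts T cells and monocytes and is itself a product of T cells and NK cells, had means about 2-fold above control with the 3 drugs and did not pass the test. Controls had 0.853 CPM (27 counts) and 0.401 CPM (12 counts). Indomethacin libraries had 1.2 and 1.1 CPM (43 counts each), aspirin libraries 1.55 and 1.35 CPM (42 and 57 counts) and diclofenac libraries 0.998 and 1.36 CPM (44 and 57 counts). All 6 lay above both controls, by a narrow margin for diclofenac replicate 1. Ccl5 passed the test with none of the 3 drugs in the fit on all libraries. Its log2 fold change over control was 1.19 ± 0.42 with aspirin, 0.90 ± 0.42 with diclofenac and 0.87 ± 0.42 with indomethacin (SE, edgeR adjusted p = 0.068, 0.19 and 0.55). These values turned on the controls. Without control replicate 1 they were 1.87, 1.58 and 1.53, and without control replicate 2 they were 0.79, 0.49 and 0.45, with no call in either case (edgeR adjusted p from 0.071 to 0.74). The honokiol group, at 0.809 and 0.599 CPM (25 and 16 counts), lay between the control libraries.

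Counted over the 4 genes, 0 were called higher with indomethacin, 2 with diclofenac (Ccl2 and Ccl3) and 1 with aspirin (Ccl2). Ccl3 passed the low-count filter only through libraries of the drugs given alone. Under a stricter filter (at least 1 CPM in 2 libraries), which left Ccl3 untested, the diclofenac count was 1. Over all 16346 genes tested, 0.752% were called higher with indomethacin, 4.76% with diclofenac and 9.5% with aspirin. At an unadjusted p under 0.05 edgeR gave 2 of the 4 as higher with indomethacin, beside 7.04% of all tested genes. DESeq2 called 1, Ccl2, of the 2 it gave an adjusted p, beside 2.31% of all genes with one. With diclofenac the unadjusted count was 2, beside 13.5%, and DESeq2 called 2 of 4, beside 6.49%. With aspirin the unadjusted count was 3, beside 18.5%, and DESeq2 called 1 of 3, beside 10.9%. Libraries of drug and control did not overlap, with the drug higher, for 3 of the 4 genes with indomethacin, 4 with diclofenac and 3 with aspirin, where Ccl4 was the exception both times. Among all tested genes this held for 20.1%, 27% and 30.4%. The median fitted log2 fold change of the 4 was 3.26, 3.73 and 2.99 for indomethacin, diclofenac and aspirin, or 1.65, 2.28 and 1.30 with Ccl3 at its floor bound, beside medians over all tested genes of -0.02, -0.01 and 0.00. The 3 comparisons share the control libraries. The 4 genes were chosen with earlier results of these data known, and Ccl3 and Ccl4 passed the filter only through the drug libraries. These counts, shares and medians are therefore a description. They do not test whether the 4 rise more often or further than other genes.

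**Figure D2:**
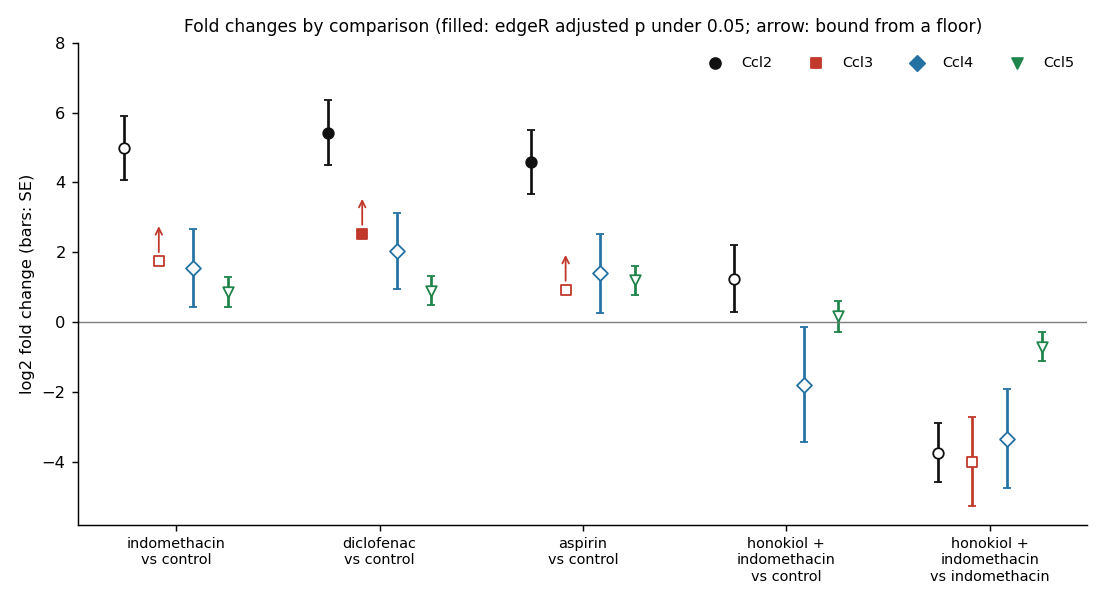
Log2 fold change (vertical axis) of the 4 genes in 5 comparisons, with bars for the SE of the edgeR fit. Filled symbols have an edgeR adjusted p under 0.05, and Ccl3 against control is drawn at its bound over a floor of 3 counts in each control library with an arrow upward; it has no point where neither group exceeded the floor. Filled symbols are Ccl2 with diclofenac and aspirin and Ccl3 with diclofenac. Ccl3 passed the low-count filter only through libraries of the drugs given alone.

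Scaled per kilobase of exon, which lets genes be compared, the order of the 4 changed with treatment. In both controls Ccl5 led, at a level of 1.56 and 0.735 CPM per kb, over Ccl2 at 0.908 and 0.52. In each of the 6 libraries of the drugs alone Ccl2 led. The ratio of Ccl2 to Ccl5 per kb was 0.58 and 0.707 in control, 7.16 and 14.7 with indomethacin, 2.74 and 10.8 with aspirin and 11.8 and 16.1 with diclofenac. With honokiol plus indomethacin it was 1.75 and 0.693. The control and honokiol ranges met, and every library of a drug alone was above them. Ccl2 made up 31.6% and 41.4% of the summed per-kb level of the 4 genes in control and 89% and 89.2% with diclofenac. Against all tested genes on the same per-kb scale, the Ccl2 level exceeded 29.8% and 21.7% of them in the controls and 93.1% and 95.8% in the diclofenac libraries. Ccl3 and Ccl4 exceeded at most 33.8% in any library, a value reached by Ccl4 in diclofenac replicate 2.

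Honokiol given before indomethacin was compared with indomethacin alone, since the protocol speaks of protection. All 4 genes lay lower in both honokiol libraries than in both indomethacin libraries, a pattern that 23.6% of all tested genes also showed. Ccl3 and Ccl4 passed the low-count filter only through libraries of the drugs given alone, so this count is a description and not a test. The summed counts were 84 against 1441 for Ccl2, 1 against 25 for Ccl3, 2 against 29 for Ccl4 and 41 against 86 for Ccl5. As ratios scaled for library size these were 0.0757 for Ccl2 (95% Poisson interval 0.06 to 0.0943), 0.0519 for Ccl3 (0.00126 to 0.317), 0.0895 for Ccl4 (0.0104 to 0.354) and 0.619 for Ccl5 (0.416 to 0.908). These intervals hold counting error and not the spread between libraries.

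Against that spread none of the 4 passed the test. Fitted log2 differences were -3.74 ± 0.83 for Ccl2, -4.00 ± 1.27 for Ccl3, -3.34 ± 1.41 for Ccl4 and -0.70 ± 0.42 for Ccl5 (SE, edgeR adjusted p = 0.21, 0.33, 0.49 and 0.67). EdgeR called 0.3% of all tested genes lower. Of the 4, 3 were lower at an unadjusted p under 0.05 (Ccl2, Ccl3 and Ccl4), as were 5.72% of all tested genes. DESeq2 called 1 (Ccl2, DESeq2 adjusted p = 0.0024) and 1.18% of all genes with an adjusted p. Both honokiol libraries carried Y reads, as did indomethacin replicate 1 but not replicate 2. Within the libraries with Y reads, 2 against 1, the ratio of mean Ccl2 levels was 0.107 and that of Ccl5 was 0.587.

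Set against control, the honokiol group called 0 of the 4 genes, with 0 at an unadjusted p under 0.05 and 0 called by DESeq2 of the 2 with an adjusted p. EdgeR called 0% of all tested genes higher, 3% were higher at an unadjusted p under 0.05, and DESeq2 called 0.108% higher. The log2 fold change of Ccl2 was 1.25 ± 0.96 (SE, edgeR adjusted p = 0.83), with a 95% interval from -1.05 to 3.54. This interval holds both no change and a rise of several fold. Ccl5 was at 0.17 ± 0.44 (SE, edgeR adjusted p = 0.94). Ccl4 had 2 counts against 8, a ratio of 0.267 (95% Poisson interval 0.0277 to 1.34), and for Ccl3 neither group exceeded the floor, so no fold is given.

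The drugs were given at different doses, so their levels are set side by side. By structure indomethacin is an indole acetic acid, diclofenac a phenylacetic acid and aspirin an acetylated salicylate. None of the 4 genes was called between any pair of the 3 drugs by edgeR or DESeq2, and 0 had an unadjusted p under 0.05, although DESeq2 gave an adjusted p to only 2 of them for indomethacin against aspirin. Over all tested genes 0.0184% were called between indomethacin and diclofenac, 0.0184% between indomethacin and aspirin and 0% between diclofenac and aspirin by edgeR, with 11.9%, 20.1% and 5.21% at an unadjusted p under 0.05 and 0.905%, 3.18% and 0.029% called by DESeq2. For Ccl2 the log2 difference of indomethacin minus diclofenac was -0.44, with a 95% interval from -2.12 to 1.24. Indomethacin minus aspirin was 0.40 (-1.29 to 2.08), and diclofenac minus aspirin was 0.83 (-0.86 to 2.52). The intervals span differences of over 2-fold in both directions for indomethacin against either drug, so they do not show that the drugs acted alike. The only pairs of drugs whose libraries did not overlap were diclofenac above aspirin for Ccl3 and indomethacin below aspirin for Ccl5, as held for 18.9% and 26.2% of all tested genes.

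Replicates differed by a large factor in Ccl2, by a fold of 3.44 between the aspirin libraries and 3.41 between the honokiol libraries, and of 1.89 for indomethacin, 1.85 for diclofenac and 1.75 for control. The library with more Ccl2 was also the one with more Ccl4 in all 5 groups, and with more Ccl3 in the 4 groups where Ccl3 was not at 0 in both. In the honokiol group this order rested on 2 against 0 counts for Ccl4 and 1 against 0 for Ccl3, under the floor of 3 counts. For Ccl5 the library with more Ccl2 was higher in only control, honokiol plus indomethacin and diclofenac. How many of all tested genes share the replicate order of Ccl2 was not counted. The share of counts on mitochondrial features tended to be smaller where Ccl2 was higher. It was 35.1% and 36.2% in control, 31.5% and 35.4% with honokiol plus indomethacin, 32.4% and 21.7% with indomethacin, 23.8% and 22.8% with aspirin and 21.4% and 21.1% with diclofenac. In each of the 5 groups the library with more Ccl2 had the smaller share, by a small margin in control, aspirin and diclofenac. Whether this order is particular to Ccl2 was not tested. Indomethacin replicate 1 and honokiol replicate 1, 1 library each, had nearly equal shares, at Ccl2 levels of 13.2 and 2.17 CPM. Whether the share bears on the Ccl2 level was not tested. With all mitochondrial features left out before scaling, the log2 fold changes of Ccl2 over control were 4.99, 5.43 and 4.61 for indomethacin, diclofenac and aspirin, and the same genes of the 4 were called. In such bulk tissue, more chemokine RNA per cell and more cells of a producing type cannot be told apart.

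**Figure D3:**
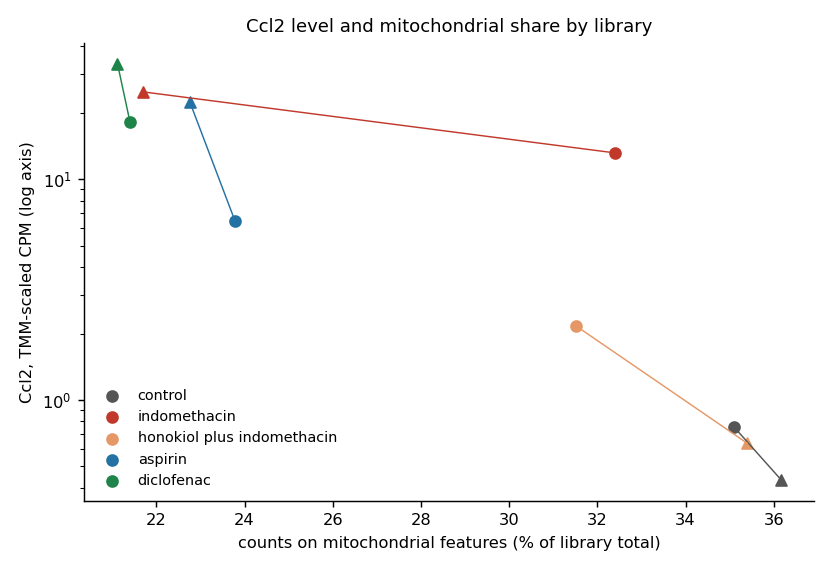
Ccl2 level in TMM-scaled CPM (vertical log axis) against the share of library counts on mitochondrial features (horizontal axis, %). Circles are replicate 1, triangles replicate 2, and a line joins the 2 libraries of a group. The line falls to the right in each of the 5 groups. Indomethacin replicate 1 is at 32.4% and 13.2 CPM, and honokiol replicate 1 at 31.5% and 2.17 CPM.

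Ccl2 sits at the edge of a run of CC chemokine genes. In the RefSeq table of GRCr8 the Ccl symbols that follow it on chromosome 10 are Ccl7, Ccl11, Ccl12 and Ccl1, the first 3 being attractants of monocytes or eosinophils. Since the files pair no identifier with a name, the features beside Ccl2 are described by position. Within 100 kb there were 3, all with 3 exons on the plus strand like Ccl2. The nearest, ENSRNOG00000000239 from 69423086 to 69424979, starts 9216 bases beyond Ccl2. It had 0.505 and 0.401 CPM in control, 5.69 and 7.65 with indomethacin, 3.24 and 9.68 with aspirin, 5.81 and 10.7 with diclofenac and 1.42 and 0.636 with honokiol plus indomethacin. It rose with all 3 drugs, at log2 fold changes of 3.87 ± 0.63, 3.83 ± 0.63 and 4.17 ± 0.63 for indomethacin, aspirin and diclofenac (SE, edgeR adjusted p = 0.03, 0.0086 and 0.0075). With the Y-read term the aspirin and diclofenac calls held (3.73 and 4.07, edgeR adjusted p = 0.0449 and 0.0451) and the indomethacin call did not (3.85, 0.069). Within the libraries free of Y reads, and without control replicate 1, none of the 3 passed (edgeR adjusted p from 0.071 to 0.35). Without control replicate 2, indomethacin replicate 1 or indomethacin replicate 2 the indomethacin call was also lost (edgeR adjusted p = 0.25, 0.062 and 0.15). Its difference between honokiol plus indomethacin and indomethacin was -2.68 ± 0.57 and did not pass (SE, edgeR adjusted p = 0.13).

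The next feature, from 69434941 to 69439575, was more abundant and passed no test. Its mean level was 38.2 CPM in control, 37.4 with honokiol plus indomethacin, 38.9 with indomethacin, 28.7 with aspirin and 43.3 with diclofenac, with edgeR adjusted p from 0.35 to 0.98 over the 3 drugs. The third, ENSRNOG00000029768 from 69476775 to 69478462, held 184 counts in all. It rose with diclofenac (log2 fold change 2.93 ± 0.80) and aspirin (2.84 ± 0.81; SE, edgeR adjusted p = 0.046 and 0.035) and was 3.62 ± 0.78 with indomethacin (SE, edgeR adjusted p = 0.068). Both calls were lost with the Y-read term (2.71 and 2.61, edgeR adjusted p = 0.14 and 0.11), within the libraries free of Y reads (0.17 and 0.14) and without control replicate 1 (0.18 and 0.13), control replicate 2 (0.12 and 0.11), aspirin replicate 1 (0.054 and 0.13) or aspirin replicate 2 (0.054 and 0.065). The diclofenac call was also lost without indomethacin replicate 1, indomethacin replicate 2 or diclofenac replicate 2 (edgeR adjusted p = 0.059, 0.065 and 0.18) and with the 2 groups fitted alone (0.064). On the lower side the next feature lay 434284 bases away and held 0 counts.

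**Figure D4:**
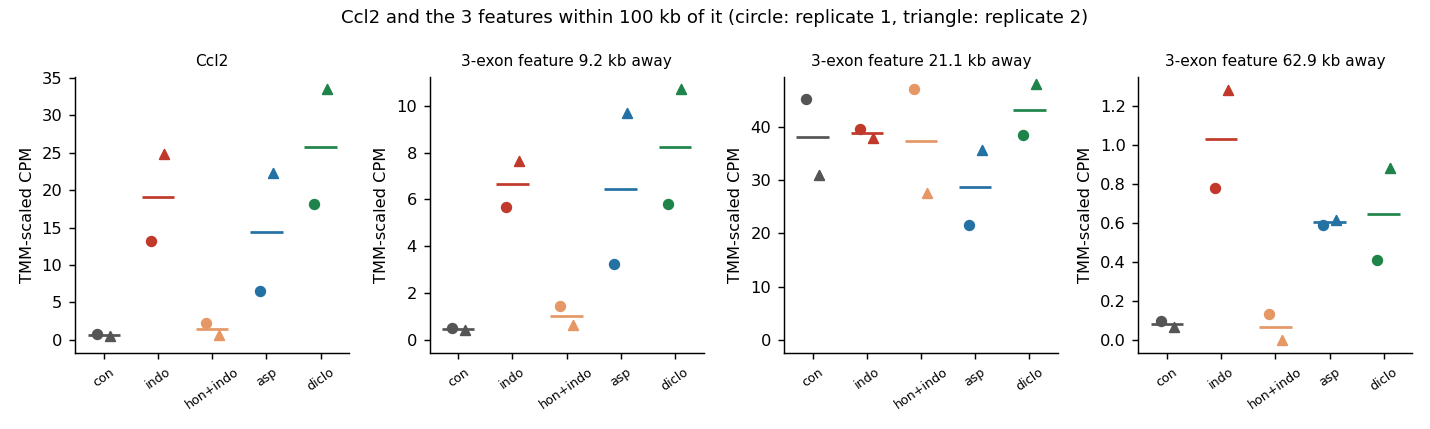
TMM-scaled CPM (vertical axes, which differ between panels) of Ccl2 and of the 3 features within 100 kb of it, by group (con, control; indo, indomethacin; hon+indo, honokiol plus indomethacin; asp, aspirin; diclo, diclofenac). Circles are replicate 1, triangles replicate 2 and lines the mean; in the panel of the abundant feature every group overlaps the control, and in the other panels every library of a drug alone lies above the control and honokiol libraries.

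Around the other 3 genes, no feature other than Ccl3 itself was called against control within 100 kb. Ccl4 and Ccl3 are each other's nearest tested neighbours on one side. Below Ccl3 the next feature, from 70797124 to 70802782, had 5.15 and 3.27 CPM in control, 10.4 and 11.6 with indomethacin, 4.38 and 11.3 with aspirin and 8.89 and 15.1 with diclofenac (edgeR adjusted p = 0.33, 0.2 and 0.086). Above Ccl4 the next feature, from 70926440 to 70928206, held 0 counts. On the sides of Ccl5, a 15-exon gene from 70726071 to 70735742 had 0.179 CPM in control and 0.24 to 0.346 CPM as means of the other 4 groups, and a 4-exon gene from 70783424 to 70788309 had 0.996 CPM in control and 0.398 to 0.764 in the others. No comparison with control gave either gene an edgeR adjusted p under 0.05.

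Patterns across the 10 libraries were compared by Pearson's r of log2 CPM over the genes tested, as a description that rests on 5 groups of 2 and on shared differences between them. Ccl2 and Ccl3 were alike at r = 0.965, and Ccl3 ranked 37 of 16345 genes by likeness to Ccl2, while Ccl2 ranked 5 by likeness to Ccl3. Ccl4 followed Ccl2 at r = 0.84 (rank 526) and Ccl3 at 0.85 (rank 386). Ccl5 followed Ccl2 at r = 0.829 (rank 602), Ccl4 at 0.815 and Ccl3 at 0.731. The feature most like Ccl2 was its neighbour ENSRNOG00000000239, at r = 0.995. The others of its closest 5 were a 7-exon gene on chromosome 8 from 116307141 to 116318289 (r = 0.992), a 5-exon gene on chromosome 4 from 3043231 to 3047807 (0.989), a 4-exon gene on chromosome 14 from 84482674 to 84500642 (0.988) and a 10-exon gene on chromosome 13 from 67351087 to 67359335 (0.988).

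The same chromosome 13 gene was the one most like Ccl3, at r = 0.97. Its level was 1.24 to 1.77 CPM in control, 34.7 to 68.6 with indomethacin, 13.2 to 53.6 with aspirin, 25.1 to 94.2 with diclofenac and 2.1 to 3.53 with honokiol plus indomethacin. For Ccl4 the closest was a 3-exon gene on chromosome 3 from 118317761 to 118366872 (r = 0.949), and for Ccl5 a 7-exon gene on chromosome 7 from 119783849 to 119797098 (r = 0.97). The closest 5 of Ccl5 had low folds like Ccl5 itself, with log2 fold changes over control of 0.79 to 1.72 for aspirin. Ranking by Spearman's rho instead kept 1 of the closest 5 for Ccl2, Ccl4 and Ccl5 and 2 for Ccl3, so the individual names in these lists depended on the measure.

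**Figure D5:**
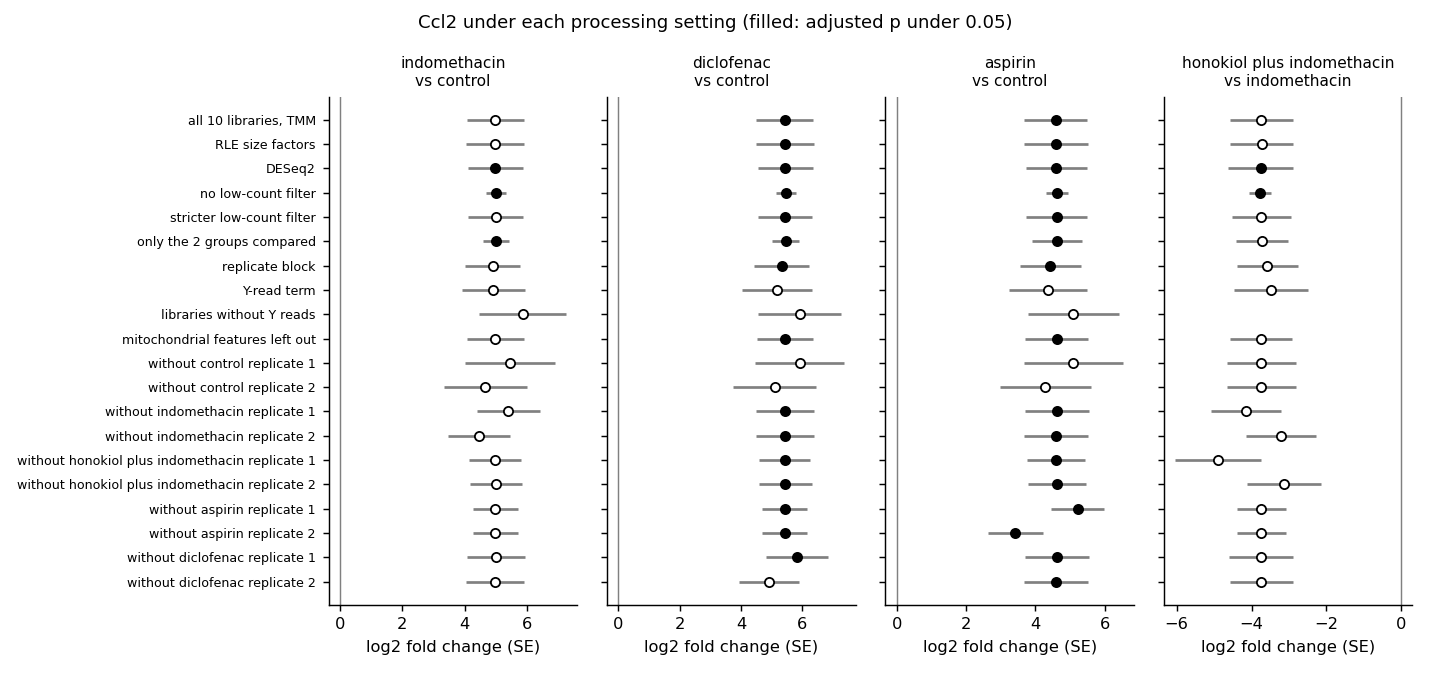
Log2 fold change of Ccl2 (horizontal axes, bars are the SE) in 4 comparisons under each processing setting (rows), filled where the adjusted p was under 0.05. Over all settings shown the value stays between 4.45 and 5.86 for indomethacin, 4.91 and 5.91 for diclofenac, 3.42 and 5.21 for aspirin and -4.90 and -3.14 for honokiol plus indomethacin against indomethacin, while the filling changes between settings.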

How the data were processed

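The deposited files hold whole-number counts per gene, 1 file per library, in the column layout of featureCounts per the file headers. Total RNA was depleted of ribosomal RNA and made into stranded paired-end libraries, per the labels' protocols. The submitters' processing notes name HISAT2 2.1.0 and featureCounts, and also bcl2fastq, cutadapt 1.16, FastQC 0.11.7, DESeq2 and SAMtools. Build, strand setting and treatment of multi-mapped reads were not given in the sources used here.

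From these counts, edgeR 4.0.16 in R 4.3.3 was run on all 10 libraries in 1 fit: filterByExpr (minimum count 10, total 15), TMM factors, group as the only term, robust quasi-likelihood F test, 5 residual degrees of freedom. Of 32623 features 16346 were tested, and all 4 chemokine genes passed the filter. Ccl3 and Ccl4 passed it only through libraries of the drugs given alone. With only 2 groups in the fit, they were tested for diclofenac but not for indomethacin or aspirin against control. Calls use a Benjamini-Hochberg adjusted p under 0.05 over all genes tested. The SE is the absolute log2 fold change divided by the square root of F. Ratios of summed counts carry exact 95% intervals. Log2 CPM for correlations used a prior count of 2. The fit was tested on simulated data with the same spread for all genes, a set value not estimated from these libraries. That test therefore does not show how the fit performs at the spread of the 4 genes here. The altered genes of the simulation were drawn from those at higher counts than Ccl3 and Ccl4, so such low counts were not covered.

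The named genes were to be the 4, the members of 6 pathway lists paired with an identifier, the 5 genes most like each of the 4 and the feature on each side. The 6 pathway lists and 14 marker lists could not be applied, as 0 identifiers matched a symbol, and sequences of the 4 genes were not analysed here. The genes and lists were chosen with earlier results of these data known. Y reads were called at over 1000 counts on 7 Y-chromosome features. Alternatives included DESeq2 1.42.0 on genes with any count, other filters and factors, a replicate block and leaving out each library.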

Additional observations from a re-analysis of the deposited data

How the results depend on the processing

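Low counts limit Ccl3 and Ccl4, at no more than 35 counts in a library, and 2 libraries a group limit all tests. Where a fit left 1 library in a group, it was assumed to vary like the other groups. The number of the 4 genes called was 0 for indomethacin, 2 for diclofenac and 1 for aspirin against control, and 0 in the other comparisons. For indomethacin it became 1 with DESeq2 and 1 with only both groups in the fit, each judged on Ccl2 and Ccl5 alone. It became 2 with no low-count filter. For diclofenac it was 1 with the stricter filter (at least 1 CPM in 2 libraries), where Ccl3 was not tested, and 0 with the Y-read term or the libraries free of Y reads. For aspirin it was 3 with no filter, and 0 with the Y-read term or the libraries free of Y reads. With no filter it was also 1 for honokiol plus indomethacin against control and 3 against indomethacin, and DESeq2 gave 1 there. With no filter the SE of Ccl2 for indomethacin against control was 0.32 in place of 0.92. Calls over all genes moved too. For indomethacin they were 127 on all libraries, 385 with DESeq2, 834 with no filter and 262 with 2 groups. For diclofenac they were 1286, with 2650 for no filter, 527 for 2 groups, 383 for the Y-read term and 150 for libraries free of Y reads, and in the same order for aspirin 2903, 4198, 1759, 683 and 184. For honokiol plus indomethacin against indomethacin they were 56, 243 with DESeq2 and 699 with no filter, and against control 0, 18 and 153. The cause was not tested. Leaving out single libraries moved the diclofenac count between 0 and 2 and the aspirin count between 0 and 1, and left the other counts at 0. RLE factors and leaving out mitochondrial features changed no count.

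With the replicate number as a block, the aspirin count was 2, since Ccl3 passed (log2 fold change 5.70, edgeR adjusted p = 0.047), and no other call on the 4 genes changed. With the block the neighbour ENSRNOG00000029768 lost its diclofenac call (2.89, edgeR adjusted p = 0.065). The labels share only a number between groups: differences between replicates correlated across genes from -0.263 to 0.298 over pairs of groups.

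Reversals were all between groups called for none of the 4. Ccl5 in honokiol plus indomethacin against control was -0.044 with the Y-read term and -0.26 to 0.82 with single libraries left out, and Ccl4 there ran from -5.23 to 3.41. For indomethacin against diclofenac, Ccl4 was 0.19 among libraries free of Y reads. With single libraries left out Ccl2 ran from -0.97 to 0.074, Ccl3 from -1.73 to 0.16, Ccl4 from -1.92 to 0.37 and Ccl5 from -0.25 to 0.21. For indomethacin against aspirin these ranges were -0.23 to 1.56 for Ccl2, -0.20 to 1.56 for Ccl3 and -1.28 to 0.82 for Ccl4, and for diclofenac against aspirin -0.22 to 1.28 for Ccl4. On plain library totals the mean Ccl5 level with aspirin was 1.6 CPM against 1.45. Spearman's rho kept 1, 2, 1 and 1 of the closest 5 genes of Ccl2, Ccl3, Ccl4 and Ccl5. The planned promoter window was not run.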
